A study of Drosophila melanogaster with 2 samples.

Results

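Genes for the initiation and elongation factors of translation were described in a binding map of the Drosophila protein CHES-1-like, which belongs to the forkhead family of transcription factors. Members were chosen by symbol: the 52 of 13968 protein-coding genes of Ensembl release 115 whose symbol starts with eIF or eEF. The map came from chromatin immunoprecipitation and sequencing (ChIP-seq) with an anti-GFP antibody in whole embryos of mixed sex, aged 0 to 24 h, of 1 transgenic line that carries CHES-1-like fused to GFP at its C-terminus. All samples belonged to this 1 group, in 2 biological replicates, numbered 2 and 3, from separate biosamples of the line, so no other genotype, treatment or stage was compared. The embryos were not sorted, so the cells in which the fusion protein was bound are not known.

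Translation starts when eIF2, loaded with GTP and initiator tRNA, joins the small ribosomal subunit together with eIF1, eIF1A, eIF3 and eIF5. The eIF4 factors recruit this complex to the capped end of the mRNA, it scans to a start codon, and eIF5B joins the large subunit. Elongation factors of the eEF class then bring aminoacyl-tRNA and move the ribosome along. Most of these factors are needed in every growing cell, while a few Drosophila genes are extra copies, some of them known for a role in the testis.

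The deposited files list peaks, each with a summit, a signal value and a q-value that are the authors' own. Signal is on the scale of its own list and ranks are counted from the strongest entry of a list, which is rank 1. The thresholded list held 4599 peaks that passed a test of reproducibility between replicates, and they were the 4599 strongest entries of the pooled list. The pooled list and each replicate list held 30000 entries, in which 9026 pooled entries, 9439 entries of replicate 2 and 7650 of replicate 3 had a q-value under 0.05, and the rest may be background. Bound genes are those with an annotated transcription start site (TSS) at most 500 bp from a thresholded summit. The files hold no read counts, so depth is unknown and intervals cover counting error over genes only. Genes share summits with their neighbours and are not independent, so no p-value was computed.

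Of the 52 genes, 22 were bound (42.3%, exact 95% interval 28.7 to 56.8), against 25.9% of all protein-coding genes. Another 19 had only a weaker pooled entry at a TSS, and 11 had no pooled entry there. A pooled entry of any rank thus stood at 41 members (78.8%), against 56.6% of all genes. Entries with a q-value under 0.05 stood at 31 members (59.6%), against 38.6% of all genes. Bound members were spread over all 6 groups of factors, from 2 of 2 for eIF1 and eIF1A to 3 of 13 for eIF4. The 22 bound genes had a median rank of 1495 for their strongest summit and a median signal of 163, against 1965 and 141 over the 3624 bound genes of the genome. Among them, 10 (45.5%) ranked 1149 or better, which is 1 in 4 of the thresholded peaks, against 30.4% of all bound genes.

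**Figure D1:**
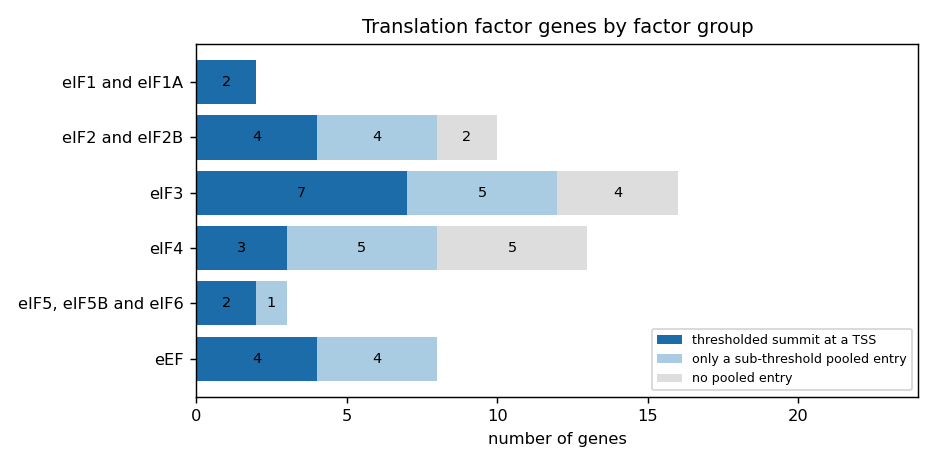
Number of translation factor genes in each factor group (bars), split into genes with a thresholded summit within 500 bp of a TSS, genes with only a sub-threshold pooled entry there and genes with no pooled entry. The eIF3 group holds the most bound genes, 7 of 16, and the eIF4 group the most genes without a pooled entry, 5 of 13. Over all protein-coding genes, 25.9% were bound and 56.6% had a pooled entry of any rank.

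The strongest peak of the set stood at eIF6 (FBgn0034915). Its product binds the large ribosomal subunit, keeps it from joining the small one too early and takes part in its assembly. The peak ranked 28 in the thresholded list with a signal of 972, 102 bp upstream of the TSS. It ranked 29 in replicate 2, with a signal of 548, and 24 in replicate 3, with a signal of 434. Both replicates thus placed it near the top of 30000 entries. The nearest TSS of another gene, ytr, lay 670 bp from the summit. eIF5B (FBgn0026259), the GTPase of subunit joining, had a weak thresholded peak, with rank 3570 and signal 98.9, 38 bp downstream of a TSS, which ranked 3385 in replicate 2 and 4235 in replicate 3. The gene held another 2 thresholded summits, 10782 and 27699 bp from its own TSSs. eIF5, which makes eIF2 hydrolyse its GTP, had no thresholded summit, and its best pooled entry ranked 18033 with a q-value of 0.442.

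Both genes for the small factors that control start codon choice were bound, where 25.9% of all protein-coding genes were. eIF1 (FBgn0035423) ranked 423 with a signal of 297. It ranked 657 in replicate 2 and 249 in replicate 3. The summit lay 334 bp upstream of the TSS of eIF1 and 47 bp from that of RpL28, a ribosomal protein gene on the opposite strand, and eIF1 was not bound within 250 bp. eIF1A (FBgn0026250) stood near the end of the list, with rank 4097 and signal 90.3, 118 bp downstream of a TSS. It ranked 4070 in replicate 2 and 5985 in replicate 3, where the entry fell outside the 4599 best.

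The genes named eIF2 and eIF2B were bound in 4 of 10 cases, against 25.9% of all protein-coding genes. Those for eIF2alpha and eIF2beta ranked just below the threshold. The subunits alpha, beta and gamma form eIF2, and the 5 subunits of eIF2B recharge it with GTP, while eIF2A and eIF2D are single proteins that can deliver tRNA by other routes. eIF2A (FBgn0037135) had the strongest peak of the group, with rank 881 and signal 211, 33 bp upstream of a TSS. It ranked 892 in replicate 2 and 1103 in replicate 3, and no other gene started within 1000 bp. eIF2gamma (FBgn0263740), the GTP-binding subunit, ranked 2613 with a signal of 120, 33 bp upstream of a TSS. Its entry ranked 1609 in replicate 2 but 5117 in replicate 3, so 1 replicate alone placed it among its 4599 best. The gene shares its TSS with Su(var)3-9, a histone methyltransferase gene, so the peak cannot be given to either. eIF2beta (rank 4724), eIF2alpha (4915) and eIF2D (5316) followed below the threshold in the pooled list, all with q-values under 0.001. eIF2beta was among the 4599 best of both replicates, with ranks 3515 and 4567.

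Within eIF2B, the delta and epsilon subunit genes were bound, and both summits lay nearer to the TSS of another gene. eIF2Bdelta ranked 3432 with a signal of 102, 31 bp from its own TSS and 27 bp from that of roh. eIF2Bepsilon, the catalytic subunit, ranked 3024 with a signal of 110, 163 bp from its own TSS and 56 bp from that of Ocrl. In replicate 2 the strongest entry at eIF2Bepsilon ranked 2059 and lay over 100 bp from the thresholded summit. eIF2Bgamma had a pooled entry of rank 7034. eIF2Balpha and eIF2Bbeta had none, although eIF2Balpha had entries of rank 11675 in replicate 2 and 6522 in replicate 3. The start of eIF2Bbeta lies 719 bp from that of Ugalt, and within 1000 bp it too counted as bound.

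eIF3, the scaffold on the small subunit, had 7 bound genes of 16, against 25.9% of all protein-coding genes. Each of the 7 had an entry at a TSS among the 4599 best of both replicates. Over all genes, bound or not, 21.0% had such entries. For eIF3b and eIF3m the entry in replicate 3 was another summit, and the one within 100 bp of the thresholded summit ranked 6216 and 4866 there. eIF3h (FBgn0022023) had the second strongest peak of all members, with rank 166 and signal 420. It ranked 223 in replicate 2 and 159 in replicate 3. The summit lay 264 bp downstream of a TSS, inside the gene and on the far side from the start of senju. eIF3c (FBgn0034258), a core subunit, ranked 509 with a signal of 276, 20 bp downstream of a TSS. Its ranks in replicates 2 and 3 were 554 and 421. eIF3a (FBgn0037249), the largest core subunit, ranked 1141 with a signal of 188 and held ranks 1486 and 725 in replicates 2 and 3. That summit lay 63 bp from the TSS of eIF3a and 7 bp from that of CG1074 on the opposite strand.

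The other bound eIF3 genes had weaker peaks. eIF3d1 (FBgn0040227), whose product can bind the cap itself as shown for its human counterpart, ranked 1649 with a signal of 154, 9 bp upstream of its only TSS, where it had 2 thresholded summits. It ranked 1195 in replicate 2 and 1579 in replicate 3. eIF3b, with an RNA recognition motif, ranked 2857 with a signal of 114, 214 bp downstream of a TSS. eIF3m ranked 2895 with a signal of 113, 4 bp upstream, and eIF3j, a loosely held subunit, 3241 with a signal of 106, 9 bp downstream. Below the threshold, eIF3f1 (4888), eIF3l (6372) and eIF3k (7395) had q-values of 0.000716, 0.00322 and 0.0148. eIF3g1 and eIF3i had pooled entries of rank 14901 and 15703 that missed a q-value of 0.05, and eIF3e had none in the pooled list. The complex was therefore not bound as a block, since subunit genes ranged from rank 166 to no pooled entry.

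The extra copies of eIF3 subunit genes had no pooled entry at a TSS. These were eIF3d2, eIF3f2 and eIF3g2, next to eIF3d1 at rank 1649, eIF3f1 at 4888 and eIF3g1 at 14901. eIF3d2 and eIF3g2 had no entry in either replicate list, and eIF3f2 had 1 in replicate 2 alone, with rank 22431. Each of these copies has 1 annotated TSS. Over all protein-coding genes, 56.6% had a pooled entry of any rank at a TSS, so lacking one was common.

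Of the eIF4 genes, 3 of 13 were bound, a share near the 25.9% of all genes, and the main cap-binding gene was not among them. Differences between the factor groups were not tested. eIF4EHP (FBgn0053100), which binds the cap without recruiting eIF4G and so represses translation, had the strongest peak of the group, with rank 587 and signal 256. It ranked 696 in replicate 2 and 418 in replicate 3, 107 bp upstream of the TSS. The gene held another 4 thresholded summits away from its TSS, of which 2 lay within 500 bp of a TSS of Syx1A, a gene of vesicle fusion. eIF4G2 (FBgn0260634), a scaffold paralogue needed for male germ cell meiosis, ranked 1735 with a signal of 150, 41 bp upstream of a TSS shared with CG33111. It ranked 1999 in replicate 2 and 1806 in replicate 3. eIF4A (FBgn0001942), the RNA helicase, ranked 2003 with a signal of 139, 91 bp upstream of a TSS, and held rank 3093 in replicate 2 and 1448 in replicate 3.

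Unbound eIF4 genes included the main copies of the cap-binding protein and of its scaffold. eIF4E1 had a best pooled entry of rank 10033 at its 4 TSSs, with a q-value of 0.086. In the replicates its best entries at a TSS ranked 7559 in replicate 2 and 5903 in replicate 3, with q-values of 0.013 and 0.0114. A thresholded summit of rank 3681 lay inside the gene, 909 bp from the nearest TSS, so within 1000 bp eIF4E1 counted as bound. eIF4G1 had an entry of rank 9415 with a q-value of 0.0619. Of the other eIF4E genes, eIF4E6 had an entry of rank 5612 with a q-value of 0.00098. eIF4E3, eIF4E4, eIF4E5 and eIF4E7 had no entry at a TSS in the pooled list or in either replicate, and neither had eIF4B, a cofactor of the helicase. eIF4E3 is known for its role in spermatogenesis. eIF4H1 and eIF4H2, genes of related cofactors, had entries of rank 6505 and 24130, with q-values of 0.00361 and 0.649.

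**Figure D2:**
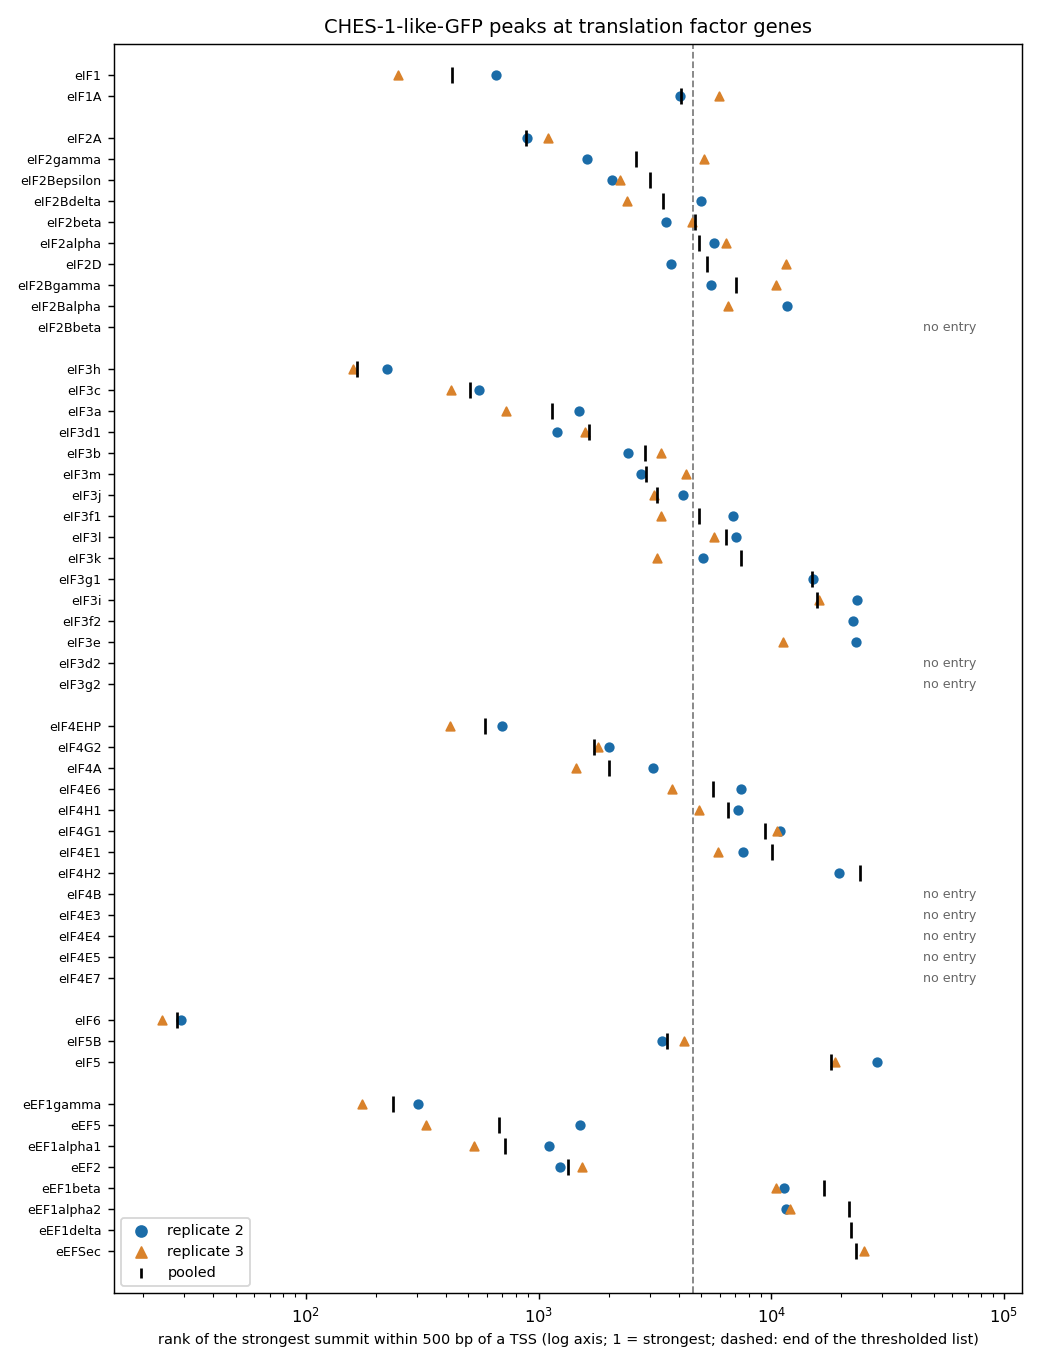
Rank of the strongest summit within 500 bp of a TSS for each of the 52 genes on a log axis, in replicate 2 (circles), replicate 3 (triangles) and the pooled list (bars), with the end of the thresholded list at rank 4599 dashed. Genes run by factor group from eIF1 to eEF. eIF6 stands apart at ranks 24 to 29, and 8 genes had no entry in any list.

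Elongation factor genes split into 4 bound and 4 unbound, where 25.9% of all protein-coding genes were bound. eEF1gamma (FBgn0029176), a subunit of the exchange complex that recharges eEF1alpha, had the third strongest peak of all members, with rank 236 and signal 374, 4 bp upstream of a TSS. It ranked 304 in replicate 2 and 175 in replicate 3. eEF5 (FBgn0285952), the hypusine-bearing factor formerly called eIF5A, ranked 674 with a signal of 240, 14 bp upstream of a TSS, and held rank 1505 in replicate 2 and 330 in replicate 3. eEF1alpha1 (FBgn0284245), which delivers aminoacyl-tRNA and is among the most abundant proteins of the cell, ranked 716 with a signal of 231, 46 bp upstream of a TSS, and had 2 thresholded summits at its TSSs. Ranks at eEF1alpha1 were 1105 in replicate 2 and 526 in replicate 3. eEF2 (FBgn0000559), the translocase, ranked 1341 with a signal of 173, 21 bp upstream of a TSS, and 1234 and 1536 in replicates 2 and 3.

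The other elongation factor genes had only entries that did not reach a q-value of 0.05. eEF1beta and eEF1delta, the other genes of the exchange complex, had pooled ranks of 16818 and 21904, so bound eEF1gamma was the exception within that complex. eEF1alpha2, the second eEF1alpha gene, had a pooled rank of 21530, against 716 for eEF1alpha1. eEFSec, the factor for selenocysteine, had a rank of 23193.

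The replicates largely placed the same members high. Among the 4599 best entries of replicate 2, 23 members were bound (44.2%), against 25.2% of all genes. Replicate 3 gave 24 members (46.2%), against 26.2% of all genes. In both together 20 members were bound (38.5%), against 21.0% of all genes, and the only one of them outside the thresholded list was eIF2beta. Of the 22 bound in the thresholded list, 21 were bound in replicate 2, all except eIF2Bdelta, and 20 in replicate 3, all except eIF1A and eIF2gamma. Over the 39 members with an entry in both replicates, 29 had ranks within a factor of 2 of each other. The share over all genes was not computed for this count. By ratio of ranks the bound member with the widest gap was eEF5, at 1505 and 330 in replicates 2 and 3, and by difference it was eIF2gamma, at 1609 and 5117. Within 100 bp of the thresholded summit, replicate 2 had an entry at 21 of the 22 genes, at a median offset of 2 bp, and replicate 3 at 22, at a median offset of 12.5 bp. These matching entries were among the 4599 best at 20 genes in replicate 2 and 18 in replicate 3. The thresholded list was derived from these replicate lists, so the overlap is not an independent check.

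Summits at the bound members lay close to the TSS. The median distance was 39.5 bp, against 97 bp over all bound genes, and 13 of the 22 lay within 50 bp (59.1%), against 29.9% of all bound genes. With 1 TSS per gene the medians were 82.5 and 99 bp, so the closeness depends on which annotated starts are counted. Upstream summits numbered 16 (72.7%), against 79.7% of all bound genes, and 6 were downstream. eIF3h (264 bp), eIF3b (214 bp) and eIF1A (118 bp) had the summits farthest downstream, and eIF1 (-334 bp) and eIF2Bepsilon (-163 bp) farthest upstream.

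**Figure D3:**
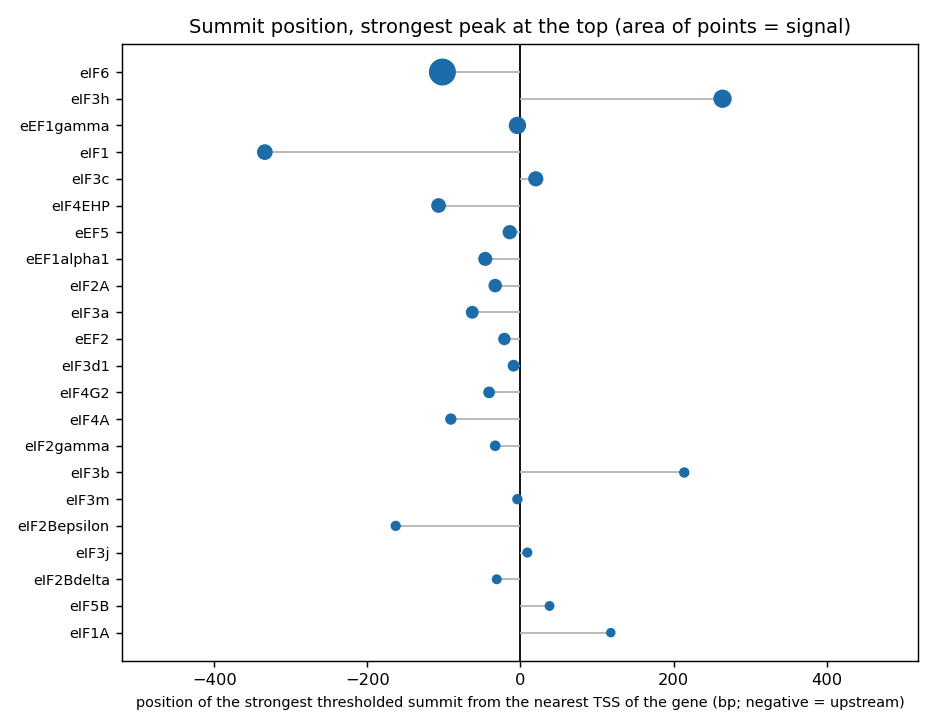
Position of the strongest thresholded summit relative to the nearest TSS of each of the 22 bound genes, in bp along the gene, with point area in proportion to signal. Summits at 13 genes lie within 50 bp of the TSS, and eIF1 and eIF3h are the outermost at -334 and 264 bp.

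Bound members were mostly genes with several annotated starts. Of 20 members with several TSSs, 16 were bound (80.0%), against 39.5% of all such genes. Of 32 members with 1 TSS, 6 were bound (18.8%), against 21.1% of all such genes. The 6 were eIF1, eIF2Bepsilon, eIF3a, eIF3d1, eIF4EHP and eIF6. Genes with more TSSs have more sequence in the window, and the part of this in the difference was not tested. With only the most upstream TSS of each gene, 20 of the 52 members were bound, against 24.0% of all genes. The 2 lost were eEF1alpha1 and eIF4A, whose peaks lie at starts further downstream.

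A start of another gene close by also went with being bound. Of 28 members with such a start within 1000 bp, 17 were bound (60.7%), against 41.3% of all such genes. Without one, 5 of 24 members were bound (20.8%), against 14.4%. These 5 were eIF2A, eIF3d1, eIF3j, eEF1gamma and eEF2. Both features together gave 12 of 14 bound members, against 50.9% of all such genes. With several TSSs and no neighbour it was 4 of 6, against 28.1%, with 1 TSS and a neighbour 5 of 14, against 37.0%, and with neither 1 of 18, against 10.3%. The members' share was thus above that of all genes where several TSSs are annotated and slightly below it where 1 is, and the exact intervals at these small numbers are wide.

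**Figure D4:**
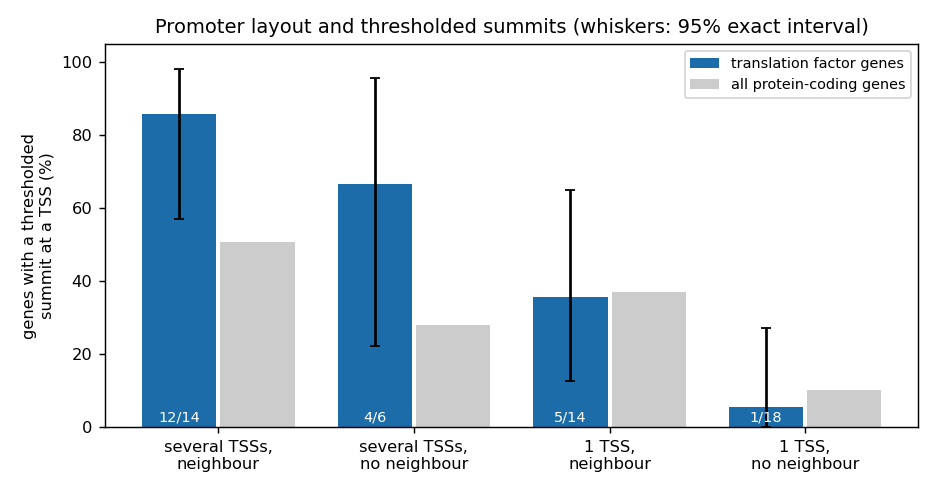
Share of genes with a thresholded summit at a TSS, in percent, for translation factor genes (dark bars with exact 95% intervals and counts) and all protein-coding genes (light bars), by number of annotated TSSs and presence of another gene's TSS within 1000 bp. The share among translation factor genes runs from 85.7% (12 of 14) with both features to 5.56% (1 of 18) with neither.

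When a summit was credited only to the gene of the nearest TSS, 18 of the 52 members were bound, against 19.3% of all genes. The summit was nearer to another gene's TSS for eIF1, eIF2Bdelta, eIF2Bepsilon and eIF3a, and equally near for eIF2gamma and eIF4G2. For the remaining 16 bound genes the summit was nearest to the factor gene itself.

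Sequence at the bound summits was searched for the DNA replication-related element (DRE, TATCGATA), which is bound by DREF, a regulator of growth and housekeeping promoters. The windows with a DRE in capitals are shown because they place it beside the summit, which is the middle base of each. They span 100 bases on each side of the summit in dm6 and read 5' to 3' on the strand of the factor gene, at chr3R:29220068-29220268, plus strand for eEF1gamma, chr3L:3222907-3223107, plus strand for eIF1, chr3L:21824832-21825032, plus strand for eIF2A, chr3R:15263391-15263591, minus strand for eIF2gamma and chr3R:4433858-4434058, minus strand for eIF3a.
eEF1gamma: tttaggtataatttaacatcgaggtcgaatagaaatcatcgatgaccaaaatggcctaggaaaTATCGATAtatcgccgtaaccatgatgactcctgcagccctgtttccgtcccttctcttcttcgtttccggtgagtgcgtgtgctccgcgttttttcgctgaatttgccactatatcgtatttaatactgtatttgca
eIF1: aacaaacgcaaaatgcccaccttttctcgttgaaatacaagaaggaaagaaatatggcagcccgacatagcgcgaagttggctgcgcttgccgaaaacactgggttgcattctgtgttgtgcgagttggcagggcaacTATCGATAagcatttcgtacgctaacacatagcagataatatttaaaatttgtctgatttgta
eIF2A: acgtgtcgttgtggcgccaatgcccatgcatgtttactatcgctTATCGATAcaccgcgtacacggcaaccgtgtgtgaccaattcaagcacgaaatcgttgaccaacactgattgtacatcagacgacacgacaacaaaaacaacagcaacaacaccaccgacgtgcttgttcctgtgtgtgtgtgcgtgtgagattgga
eIF2gamma: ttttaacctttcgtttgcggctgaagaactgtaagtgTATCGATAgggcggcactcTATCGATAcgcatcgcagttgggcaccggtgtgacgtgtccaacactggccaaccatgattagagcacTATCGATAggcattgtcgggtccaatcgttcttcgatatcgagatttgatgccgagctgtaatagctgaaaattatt
eIF3a: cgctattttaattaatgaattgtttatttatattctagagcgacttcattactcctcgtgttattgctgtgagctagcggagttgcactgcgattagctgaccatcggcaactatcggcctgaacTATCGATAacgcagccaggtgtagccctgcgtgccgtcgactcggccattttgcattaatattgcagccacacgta

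A DRE stood within 100 bp of the summit at 6 of the 22 bound members (27.3%), these 5 and eIF6, against 11.2% of the 2571 strongest promoter summits of all bound genes. The window of eIF2gamma held 3 copies, and that of eIF1 lies at the start of RpL28. The DRE is its own reverse complement, so both strands are searched at once. M1BP binds another promoter element, Motif 1, whose core GGTCACACT was found on either strand at 1 of the 22 summits (4.55%), against 7.00% of all. That summit was at eIF5B, where the core in capitals ends at the middle base of the window at chr3L:3460465-3460665, minus strand, shown for its position.
eIF5B: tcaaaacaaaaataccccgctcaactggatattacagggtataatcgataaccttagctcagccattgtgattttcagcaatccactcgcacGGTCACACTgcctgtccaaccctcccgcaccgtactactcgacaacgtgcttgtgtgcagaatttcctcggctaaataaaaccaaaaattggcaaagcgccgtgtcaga

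A forkhead site (NNAAACA, with A or G first and C or T second, either strand) stood in 7 of the 22 windows (31.8%), against 27.5% of all. Those at eIF3h, at chr2L:5052416-5052616, minus strand, and at eIF4EHP, at chr3R:24108967-24109167, minus strand, are shown with the site in capitals, as both are strong peaks without a DRE in the window. In eIF3h the match is on the opposite strand. Other strong peaks, at eIF3c (rank 509), eEF5 (674) and eEF1alpha1 (716), had neither a DRE nor a forkhead site in the window. Measured from the summit along the gene, the match at eIF4EHP was centred at -71 bp. Those at eIF2A, eIF3a and eEF2 were centred at -67, -77 and -95 bp, and that at eIF2Bdelta at 9 bp. At eIF6, the strongest peak of the set, matches were centred at -3 and 76 bp and the DRE at 95 bp.
eIF3h: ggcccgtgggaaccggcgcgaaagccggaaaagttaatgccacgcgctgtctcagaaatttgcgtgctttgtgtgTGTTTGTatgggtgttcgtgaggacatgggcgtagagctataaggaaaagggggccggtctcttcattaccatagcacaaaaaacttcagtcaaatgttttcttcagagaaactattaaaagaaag
eIF4EHP: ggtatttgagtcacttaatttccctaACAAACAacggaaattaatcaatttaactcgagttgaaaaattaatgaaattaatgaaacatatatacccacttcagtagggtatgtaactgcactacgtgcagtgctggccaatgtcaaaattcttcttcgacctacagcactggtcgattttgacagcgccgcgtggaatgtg

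Promoters were then searched whether bound or not, from 250 bases before to 50 from the TSS on, at every TSS of a gene. A DRE stood at 15 of the 52 members (28.8%), against 10.2% of all protein-coding genes. Bound members held it in 8 of 22 cases (36.4%), against 18.4% of all bound genes, and unbound members in 7 of 30 (23.3%), against 7.27% of all unbound genes. Of the 15 with a DRE, 8 were bound (53.3%), against 47.0% of all genes with one, and of the 37 without, 14 were bound (37.8%), against 23.6%. Members therefore carried this element more often than the average gene whether or not they were bound.

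Some members had a DRE at the start and no thresholded peak. eIF4B (chr3L:27858222-27858421, minus strand) and eIF2Bbeta (chrX:2704421-2704620, plus strand) had no entry in any list within 500 bp of the TSS. Within 1000 bp eIF2Bbeta counted as bound. eIF2alpha (chrX:16446944-16447143, minus strand) had an entry just below the threshold. Their windows are shown for contrast, from 150 bases before to 50 from the TSS on, with the DRE in capitals. In eIF4B and eIF2alpha it ends 12 and 6 bases before the TSS, and in eIF2Bbeta it starts 28 bases after it.
eIF4B: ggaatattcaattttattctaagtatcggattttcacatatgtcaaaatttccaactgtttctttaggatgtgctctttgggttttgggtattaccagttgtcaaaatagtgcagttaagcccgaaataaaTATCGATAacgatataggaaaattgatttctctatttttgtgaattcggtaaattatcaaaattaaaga
eIF2Bbeta: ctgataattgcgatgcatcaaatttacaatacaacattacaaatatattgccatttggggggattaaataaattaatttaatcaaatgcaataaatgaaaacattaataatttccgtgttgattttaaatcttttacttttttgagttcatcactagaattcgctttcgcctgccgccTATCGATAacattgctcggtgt
eIF2alpha: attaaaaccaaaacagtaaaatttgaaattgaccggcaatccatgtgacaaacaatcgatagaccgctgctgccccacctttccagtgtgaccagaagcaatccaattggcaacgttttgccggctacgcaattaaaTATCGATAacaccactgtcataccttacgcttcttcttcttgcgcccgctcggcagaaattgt

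The TCT initiator is a start element known from ribosomal protein and other translation genes, searched here as CTTTC or CTTTT on the gene strand with its C within 5 bases of the TSS. It was found at 6 of the 52 members (11.5%), against 5.13% of all genes. Every TSS was searched, and 38.5% of members had several, against 26.5% of all genes. A search with 1 TSS per gene was made for the DRE alone among the motifs. The 6 were eEF2, eEF5, eIF3f1, eIF3i, eIF3m and eIF4A, of which 4 were bound (66.7%), against 34.8% of all genes with one. The windows of eEF2 (chr2L:21682067-21682266, minus strand) and eIF4A (chr2L:5982444-5982643, plus strand), both bound, and of eIF3f1 (chr3R:4714133-4714332, minus strand), just below the threshold, are shown from 150 bases before to 50 from the TSS on, with the match in capitals.
eEF2: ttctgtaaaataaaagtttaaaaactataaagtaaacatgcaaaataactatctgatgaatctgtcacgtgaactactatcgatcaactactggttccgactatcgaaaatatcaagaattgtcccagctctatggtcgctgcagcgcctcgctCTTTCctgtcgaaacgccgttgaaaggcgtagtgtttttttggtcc
eIF4A: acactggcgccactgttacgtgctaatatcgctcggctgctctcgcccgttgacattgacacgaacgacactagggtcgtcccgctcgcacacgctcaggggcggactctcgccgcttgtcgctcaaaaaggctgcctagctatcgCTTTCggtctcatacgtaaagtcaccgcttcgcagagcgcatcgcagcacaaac
eIF3f1: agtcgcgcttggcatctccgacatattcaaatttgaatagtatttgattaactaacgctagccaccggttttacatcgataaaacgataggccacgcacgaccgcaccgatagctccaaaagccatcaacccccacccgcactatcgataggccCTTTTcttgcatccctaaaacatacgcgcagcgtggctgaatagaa

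The remaining motifs were searched in the same promoters and summit windows. In promoters on either strand, forkhead sites stood at 26 of the 52 members, against 41.1% of all genes, and GACGC at 12 (23.1%), against 28.3%. TATAAA was found at 24 (46.2%), against 51.2%, and the Motif 1 core at 4 (7.69%), against 6.77%. The E-box CACGTG, a site of Myc, stood at 5 members (9.62%), against 5.29%, of which eEF2, eIF2A, eIF2gamma and eIF4A were bound and eIF3f2 was not. At the summits, GACGC was found at 1 of 22 members (4.55%), against 17.5% of all promoter summits, TATAAA at 3 (13.6%), against 24.3%, and the E-box at 1 (4.55%), against 3.50%.

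**Figure D5:**
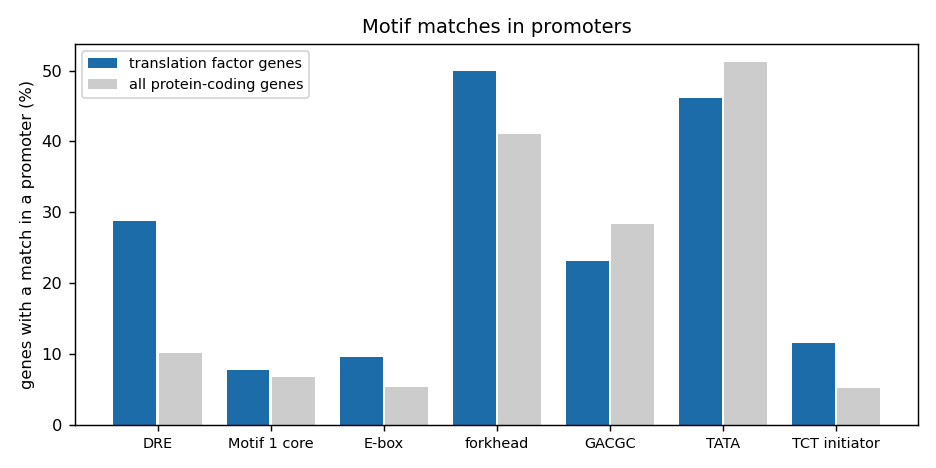
Share of genes, in percent, with a match of each motif in a promoter (250 bases before to 50 from the TSS on, any TSS; the TCT initiator within 5 bases of the TSS), for the 52 translation factor genes (dark) and all protein-coding genes (light). The DRE differs most in ratio, with 28.8% against 10.2%.

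Other genes of translation were read the same way, from lists chosen with earlier results of these data known. Of 20 regulators and partners of initiation and termination, 12 were bound, against 25.9% of all protein-coding genes. larp, which encodes an RNA-binding protein, ranked 10 with a signal of 1280, above every eIF and eEF gene, 337 bp from a TSS. Thor, the eIF4E-binding repressor, ranked 935, pAbp, the poly(A)-binding protein, 1028, bel, an RNA helicase, 1217, and Fmr1, a translational repressor, 1284. Lk6, a kinase of eIF4E, ranked 2446 at a TSS, pix, a ribosome recycling factor, 2530, and MCTS1 3141. NAT1, an eIF4G relative, ranked 3283, eRF1, the release factor, 3872, and the eIF2alpha kinase genes Gcn2 and PEK 4285 and 4442. Summits of the 12 lay between 1 bp (pix) and 473 bp (MCTS1) from a TSS, that of pAbp at 450 bp. Whether another gene started nearer to these summits was not determined. Another 6 listed genes had a weaker pooled entry at a TSS and 2 had none. Among 8 genes of mitochondrial translation factors, 3 were bound, a count near the 25.9% of all genes. They were mRF1 (rank 3166), mEFTu2 (3522) and mEFTs (4449).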

How the data were processed

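ChIP-seq peak lists of 2 biological replicates of whole embryos were used, with genes and TSSs from Ensembl release 115 and sequence from genome release 6 (RefSeq), both on dm6, the assembly of the lists per the deposited manifests. Lists on dm3 were not used. Each list gives a signal, a summit and the −log10 of a q-value, all as deposited by the authors. Per the deposited manifests, replicate lists came from the alignments of 1 library and a control, the pooled list from both libraries with that control, and the thresholded one from these 3 by the irreproducible discovery rate procedure. The aligner and the caller were not given in the sources used here. Samples were grouped by the labels.

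Genes on the main arms were used, 13968 with 19630 distinct TSSs. Members, lists and motifs were chosen with earlier results of these data known. Every member is accounted for. The 12 with the strongest thresholded peak have their ranks in both replicates given. One listed symbol, mEFG2, was not matched. Shares of members are set beside those of all genes, intervals are exact Clopper-Pearson at 95%, and no test was run. Gene assignment was checked on simulated summits. Alternatives covered windows, TSS choice, list, replicate and motif form. Scripts ran in Python 3.11.15 with pandas 2.3.3, numpy 2.4.6, scipy 1.17.1 and matplotlib 3.10.9.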

Additional observations from a re-analysis of the deposited data

How the results depend on the processing

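Counts of bound members depended little on the settings other than the depth of the list. Of the alternative values, 27 stayed within a factor of 1.5 of the reported count, or for the median distance within the SD between replicates, and 5 did not. That SD comes from the medians of 55 bp without replicate 3 and 32 bp without replicate 2, so it says nothing about the stability of those 2 values. Among the 2299 strongest thresholded peaks 14 of the 52 members were bound, against 15% of all genes (2089). Of these 14 members, 10 had a close neighbouring start, and no share of all genes was computed for this count. Fewer peaks enter at this setting by construction. With 1 TSS per gene the median distance was 82.5 bp. With the DRE shortened to its core of 6 letters, 26 of 52 members had one in the promoter, against 26.3% of all genes. At the summit 10 of the 22 bound members had one (45.5%), against 24.2% of all promoter summits. Both counts rose since a shorter motif matches more often, and the members' shares stayed above those of all genes and all promoter summits. Within 250 bp of a TSS 21 members were bound (against 22.1% of all genes) and within 1000 bp 24 (against 28.9%). Leaving out 1 replicate meant taking the 4599 best entries of the other. It gave 23 bound members without replicate 3, against 25.2% of all genes, and 24 without replicate 2, against 26.2%, as reported above. Membership changed, with 1 lost and 2 gained without replicate 3, and 2 lost and 4 gained without replicate 2. Pooled entries with a q-value under 0.05, an alternative chosen after seeing the data, gave 31, against 38.6% of all genes. No paired analysis was possible because there is only 1 group. Depth is unknown, so an unbound gene may have a peak below what these lists resolve.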
